A study of Mus musculus with 6 samples.

Results

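Ccl5-positive memory CD8 T cells of the mouse spleen were chosen by their own transcripts from single-cell RNA sequencing of 6 splenocyte libraries. A member carried at least 1 UMI (unique molecule counted) of Cd3e or Cd3d, at least 1 of Cd8a or Cd8b1, at least 2 of Ccl5 and at most 1 of Cd79a. It carried none of Cd4, Trdc, Klra1, Klra6 and Klra7. Of 31457 cells kept by the quality limits, 642 met the rule. They belonged to 3451 gated CD8 T cells, which met the same rule without its Ccl5 and Klra conditions. The 2467 gated cells with no Ccl5 and no UMI of those Klra genes served as the nearest comparison and are called Ccl5-negative CD8 T cells.

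Mice were C57BL/6 of wild-type genotype, 6 weeks old at the start, and were kept for 7 weeks on the diet labelled ND or on the diet labelled MCDHFD, described by the submitters as a model of MASH (steatohepatitis). The sample titles shorten the second diet to MCD. Each diet has 3 libraries, and neither sex nor the number of mice per library is given. Where libraries are not separate mice, the p-values below measure technical spread. The title of the study names splenic CD8 T cells high in TRNP1 alongside fibrosis of the liver, so the comparison of the diets asks how these cells differed between the fed groups.

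CD8 T cells recognise peptides on MHC class I and kill infected or transformed cells. After activation, or in response to cytokines such as IL-15, some of them persist as memory-type cells that circulate through the spleen. Such cells keep transcripts for CCL5, a chemokine ligand stored ready for release, for the IL-2 and IL-15 receptor beta chain (Il2rb), for the surface protein Ly6C (Ly6c2), for the granule protein NKG7 and for CXCR3, the receptor for interferon-induced chemokines. Naive cells hold less of most of these transcripts.

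The libraries with filtered barcode lists, ND replicate 2 and MCDHFD replicate 3, stood apart. Their lists held 3409 and 3807 barcodes, against 1114720 to 1345921 in the other 4. They carried 4.09 and 7.69 UMIs of T cell receptor V segments per 10000 UMIs, against 0.163 to 0.246. Any 2 libraries shared at most 18 kept barcodes. Of the 3273 kept barcodes of ND replicate 2, 62 to 95 were in each unfiltered list, and of the 3527 of MCDHFD replicate 3, 87 to 101. All 4952 of ND replicate 3 were in the list of MCDHFD replicate 1. Of the 6533 of ND replicate 1, 2168 to 2426 were in the other unfiltered lists. Median mitochondrial share was 0.571% and 1.68% in the filtered libraries and 3.73% to 3.96% in the others. List form stands for all of these differences, which cannot be told apart. Each diet holds 1 filtered and 2 unfiltered lists, so the gene tests carry list form as a term, and values within each form are given where they bear on a result. The ND libraries, replicates 1 to 3, gave 112, 45 and 67 members, and those on MCDHFD gave 150, 159 and 109. Their summed UMIs ranged from 326678 to 1854405 per library, lowest in ND replicate 2.

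Most gated cells held no Ccl5, and most members held it far above the threshold. Of the gated cells without UMIs of those Klra genes, 2467 had 0 Ccl5 UMIs, 223 had 1, 74 had 2, 59 had 3 to 4 and 316 had 20 or more. The median among members was 22.5, 21 and 18 UMIs on ND and 20, 19 and 14 UMIs on MCDHFD. Just outside the threshold, at 1 UMI, 55.6% of cells had a Ly6c2 UMI and 13.5% a Cxcr3 UMI. Just inside, at 2 UMIs, the shares were 68.9% and 24.3%, and at 20 or more they were 94.9% and 59.5%. Members at 2 UMIs therefore lay between the classes in these markers. Among B cells of the same libraries, which should lack Ccl5, 0.602% to 1.48% had at least 2 Ccl5 UMIs. Median depth was 3615 to 5914.5 UMIs in those B cells and 6809 to 11669 UMIs in the members.

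**Figure D1:**
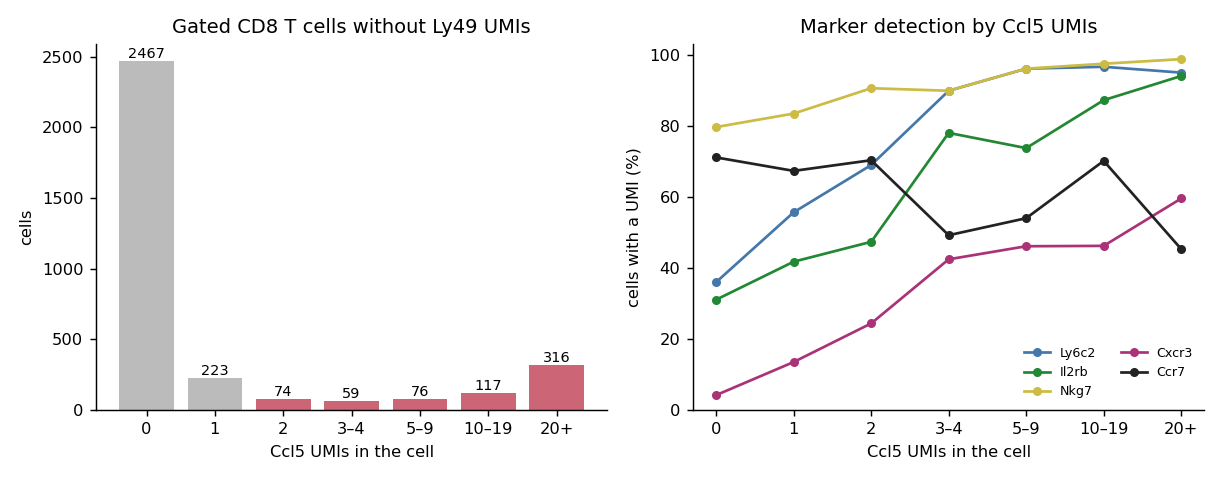
Gated CD8 T cells without UMIs of Klra1, Klra6 or Klra7, grouped by their number of Ccl5 UMIs (x axis). Left, cells pooled over the 6 libraries (y axis), with members in red; right, percent of cells with at least 1 UMI of each marker. The classes are of unequal width. Members are most numerous at 20 or more UMIs (316), and Ly6c2, Il2rb and Cxcr3 detection climbs from 0 to 3 Ccl5 UMIs while Ccr7 detection varies between 71.1% at 0 and 45.3% at 20 or more without a steady order.

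The other markers bore out the label. A Ly6c2 UMI was found in 89.6% to 94.5% of members per library, a Nkg7 UMI in 93.3% to 99.4%, an Il2rb UMI in 74.1% to 92.5% and a Cxcr3 UMI in 46.7% to 51.6%. Because members were picked by Ccl5, their differences from Ccl5-negative cells are given as a description without a test. Ly6c2 stood 2.28 higher on the log2 scale, averaged over libraries, Il2rb 2.40 higher and Cxcr3 3.29 higher. Nkg7 stood 0.92 higher, and it was detected in 79.6% of cells with no Ccl5.

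Many memory, killing and natural killer receptor genes were higher in the members. Of 30 memory genes described, 20 were higher than in Ccl5-negative cells in all 6 libraries and 0 were lower in all 6. They included Il18rap and Il18r1, the chains of the IL-18 receptor, at 3.42 and 1.59, and Cd44, the hyaluronan receptor, at 1.48. Of 25 killer receptor genes, 18 were higher in all 6 libraries, led by Klrc1, which encodes the inhibitory receptor NKG2A, at 4.46. Klrk1, which encodes the activating receptor NKG2D, stood at 3.60. Several genes of the Ly49 family in this list are close paralogs, and reads may be split between them. Of 23 cytotoxic genes, 16 were higher in all 6. Gzmm, encoding granzyme M, stood at 4.67 and Prf1, encoding perforin, at 1.04. The transcription factor genes Tbx21 and Eomes, which direct effector and memory fate, stood at 3.78 and 2.23.

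Naive genes tended lower in the members, and homing genes went both ways. Il7r, the receptor chain for the survival cytokine IL-7, stood 0.40 higher and Bcl2, an inhibitor of cell death, 0.56 higher, both in all 6 libraries. Ccr7 stood 0.88 lower and Lef1, a transcription factor of naive T cells, 0.75 lower. Of 22 naive and stem-type genes, 11 were lower and 4 higher in all 6 libraries. Of 28 homing genes, 14 were higher and 5 lower in all 6, with a median of 0.52. Itga1, the alpha 1 integrin chain, stood at 3.40. Itgae, which encodes the alpha E integrin that binds epithelial cells, stood at -3.10. The gut homing receptor gene Ccr9 stood at -2.78 and Itga4, the alpha 4 integrin chain, at -0.59.

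The levels of other cell types' genes were mixed. Of the 11 gamma delta genes, Il17a and Sox13 were at 0 in every library. The list summed to 49.0 to 77.0 CPM in the members and 5.66 to 22.8 CPM in Ccl5-negative cells, led by Cd163l1, and its part in the differences between these populations was not tested. Also at 0 were Siglech of plasmacytoid dendritic cells and Gp9 of platelets. None of the 11 genes of the NK and NKT list was at 0. Their summed level was 133 to 1081 CPM in ND and 148 to 549 CPM in MCDHFD, and Gzma and Eomes led it. The part of NK or NKT cells in this level was not tested. Summed neutrophil genes, 12 in all, ranged from 45.9 to 277 CPM in ND and from 331 to 3299 CPM in MCDHFD, highest in MCDHFD replicate 3. The 19 B and plasma cell genes summed to 349 to 572 CPM in ND and 696 to 860 CPM in MCDHFD. The groups did not overlap for these last 2 lists. Nor did they for monocyte and macrophage genes, at 120 to 127 CPM in ND and 147 to 833 CPM in MCDHFD. Dendritic genes did not overlap either, at 104 to 193 CPM in ND and 83.0 to 98.4 CPM in MCDHFD.

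The share of gated CD8 T cells that were Ccl5-positive did not separate the diets. It was 21.2%, 15.6% and 17.6% on ND, in the order of replicates, and 17.7%, 19.7% and 18.1% on MCDHFD. The means were 18.2% ± 2.83 in ND and 18.5% ± 1.05 in MCDHFD (SD, n = 3 each), with p = 0.8 in a two-sided exact permutation test. The groups overlapped within the unfiltered lists as well. After thinning of each cell to 3000 UMIs they were 14.6% to 18.3% in ND and 14.6% to 17.1% in MCDHFD (exact permutation p = 0.6). Thinning left out 22 gated ND cells and 79 gated MCDHFD cells of lower depth. With 3 libraries against 3 the smallest p this test can give is 0.1.

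Against all kept spleen cells the members were more frequent on MCDHFD. They made up 1.71%, 1.37% and 1.35% of kept cells on ND and 2.27%, 2.42% and 3.09% on MCDHFD, without overlap (exact permutation p = 0.1). Gated CD8 T cells as a whole moved alongside, at 8.18% ± 0.570 of kept cells in ND and 14.1% ± 2.60 in MCDHFD (SD, n = 3 each, exact permutation p = 0.1).

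The rule sets aside CD8 T cells that carry Ly49 receptor UMIs, and this set differed in size. Among gated CD8 T cells with at least 2 Ccl5 UMIs, the share with a UMI of Klra1, Klra6 or Klra7 was 21.7%, 18.2% and 19.3% in ND and 13.3%, 12.6% and 6.03% in MCDHFD. All MCDHFD values lay below all ND values, within each list form too (exact permutation p = 0.1, the smallest possible). This comparison was chosen after its values were seen.

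**Figure D2:**
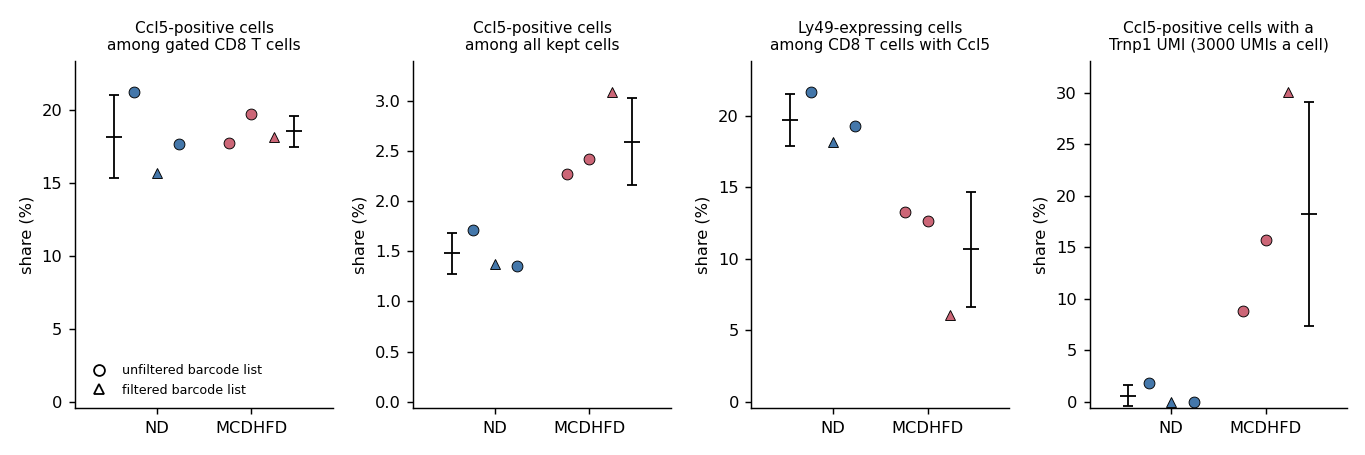
Share of cells (y axis, percent) for each library, ND in blue and MCDHFD in red, circles for unfiltered and triangles for filtered barcode lists, with mean and SD as bars. The Ccl5-positive share of gated CD8 T cells overlaps between the diets (18.2% and 18.5% on average), while the other 3 shares do not.

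In genes, 89 of 7776 tested passed an adjusted p of 0.05 between the diets in the members, which is 1.14% of genes tested. Of these, 31 were higher (0.399%) and 58 lower (0.746%) on MCDHFD. Each library's UMIs were summed over its members and tested with edgeR's quasi-likelihood test, with list form and diet in the model and Benjamini-Hochberg adjustment over all genes. Log2 values below are MCDHFD against ND from that fit with their SE, and levels are CPM, UMI counts per 1000000 UMIs of a sum scaled by TMM. With diet alone in the model 1 gene passed (0.0129%), Pclaf, and 271 had an unadjusted p under 0.05, so the calls below rest on the list form term. The median of all genes was 0.02. Levels did not overlap between the diets for 9.27% of genes tested, higher on MCDHFD for 5.02% and lower for 4.26%.

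**Figure D3:**
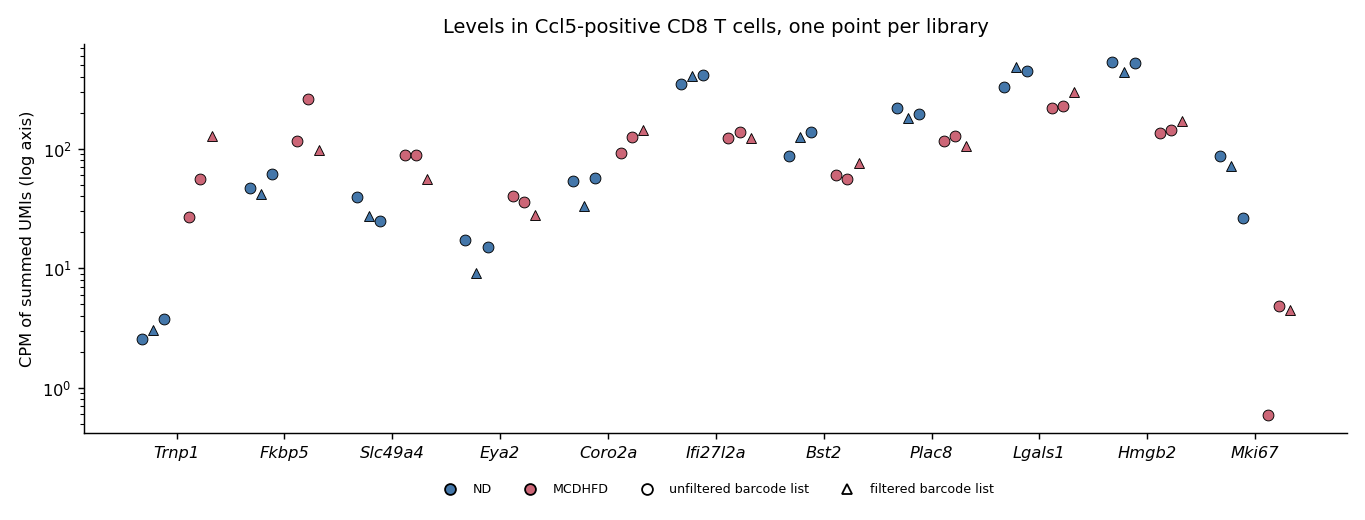
Level of each gene (CPM, log axis) in the summed Ccl5-positive cells of each library, ND in blue and MCDHFD in red, triangles for filtered lists. Trnp1, Fkbp5, Slc49a4, Eya2 and Coro2a lie higher in all 3 MCDHFD libraries than in any ND library, and the other 6 genes lie lower in all 3.

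Trnp1, the gene of the study's title, was higher in the members on MCDHFD. It encodes a nuclear protein studied mainly in brain development. On ND it stood at 2.58, 3.02 and 3.77 CPM in replicates 1 to 3, and on MCDHFD at 27.1, 56.0 and 128 CPM. Every MCDHFD library was above every ND library, and MCDHFD replicate 3 was highest. The log2 change was 4.11 ± 0.43 (SE, edgeR adjusted p = 5.73e-06). The call was lost with diet alone (edgeR adjusted p = 0.136) and held in the other 19 alternatives that could test the gene. These are not all separate checks.

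In cells, Trnp1 UMIs were found in 3, 1 and 3 members on ND and in 35, 68 and 53 members on MCDHFD. After thinning to 3000 UMIs the shares were 1.80%, 0% and 0% in ND and 8.78%, 15.7% and 30.1% in MCDHFD. Counts of 0 among 42 and 67 cells allow shares of up to 7.14% and 4.48%, for counting error only. The means were 0.601% ± 1.04 and 18.2% ± 10.9 (SD, n = 3 each, exact permutation p = 0.1). Unthinned, they were 3.13% ± 1.19 and 38.2% ± 13.2. In B cells at most 0.527% of cells had a Trnp1 UMI unthinned and at most 0.323% thinned, so the member shares on MCDHFD lay above background. Syt6, which encodes a synaptotagmin and was too low to test in members, was found in 1, 0 and 0 members in ND and in 4, 8 and 14 in MCDHFD.

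The increase in Trnp1 was not shown to be particular to Ccl5-positive cells. In Ccl5-negative CD8 T cells, Trnp1 went from 4.18 to 11.4 CPM in ND to 52.1 to 197 CPM in MCDHFD, a log2 change of 3.74 ± 0.24 (edgeR adjusted p = 5.76e-06). In each MCDHFD library its level was lower in the members than in the Ccl5-negative cells. The difference of the diet changes was 0.45 ± 0.54 (edgeR adjusted p = 0.941).

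Some targets of the glucocorticoid receptor rose together. Of 9 list members tested, 3 rose and 0 fell, with a median of 0.38, and the same 3 were called with DESeq2 and in the libraries with unfiltered lists alone. Fkbp5, whose product binds HSP90 and tempers the receptor, stood at 47.3, 42.3 and 61.5 CPM in ND and at 117, 260 and 97.0 CPM in MCDHFD. Its log2 change was 1.73 ± 0.26 (edgeR adjusted p = 9.59e-04). An Fkbp5 UMI was found in 11.7% to 11.9% of thinned ND members and in 24.3% to 44.7% of thinned MCDHFD members. Ddit4, which encodes an inhibitor of mTOR signalling, rose by 1.45 ± 0.21 (edgeR adjusted p = 4.29e-04). Its levels of 32.7, 75.4 and 23.9 CPM in ND and 54.7, 75.2 and 292 CPM in MCDHFD overlapped between the diets but not within a list form. Tsc22d3, which encodes GILZ, rose by 0.88 ± 0.16 (edgeR adjusted p = 0.00460), with the same kind of overlap. The Fkbp5 call was lost without ND replicate 1, and that of Tsc22d3 without ND replicate 3 or MCDHFD replicate 2.

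Among the other genes that rose, some were spread over many cells. Slc49a4, which encodes a membrane transporter of the SLC49 family, stood at 39.6, 27.2 and 25.1 CPM in ND and 88.2, 88.6 and 55.8 CPM in MCDHFD (log2 1.35 ± 0.20, edgeR adjusted p = 7.95e-04). The lowest MCDHFD library was the one with a filtered list, and it was above each ND library. Eya2, which encodes a phosphatase and transcriptional coactivator, stood at 17.2, 9.05 and 15.1 CPM in ND and 40.6, 35.8 and 27.9 CPM in MCDHFD (log2 1.27 ± 0.26, edgeR adjusted p = 0.0136). Coro2a, of the actin-binding coronin family, stood at 53.3, 33.2 and 56.5 CPM in ND and 92.9, 125 and 143 CPM in MCDHFD (log2 1.20 ± 0.20, edgeR adjusted p = 0.00194). Neither gene overlapped between the diets. Heatr5a rose by 1.02 ± 0.21 and Ramp1, part of the receptor for the neuropeptide CGRP, by 1.74 ± 0.43. Ly6d, H2-Aa and Lyn, which B cells express strongly, rose by 1.64 ± 0.37, 1.41 ± 0.33 and 1.72 ± 0.30. They rose alongside the summed B and plasma cell genes, whose part in the result was not tested. Ly6d, H2-Aa and Lyn were not called once cycling cells and cells with neutrophil UMIs, defined below, were left out. They then changed by 1.34, 1.08 and 1.25 (edgeR adjusted p = 0.0848 to 0.1415). The H2-Aa, Lyn and Ramp1 calls were also lost without Scrublet doublets. Without cells holding other-lineage UMIs, a setting that left few members, the calls of H2-Aa, Slc49a4 and Coro2a were lost. So were those of Fkbp5 and Tsc22d3. A single cell held 48 of 133 H2-Aa UMIs in MCDHFD replicate 2 and 16 of 51 Lyn UMIs in MCDHFD replicate 1. With DESeq2 the calls of Eya2, Heatr5a, Ramp1, Ly6d, H2-Aa and Lyn were absent. The calls of Eya2 and Heatr5a were lost without any 1 of ND replicates 1 and 3 and MCDHFD replicates 1 and 2, that of Lyn without ND replicate 1 or MCDHFD replicate 2, and that of Coro2a without MCDHFD replicate 2. Those of Ramp1, Ly6d and H2-Aa each fell away without 5 of the 6 libraries in turn.

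Of the cytokine receptor genes, 2 rose. Of 19 tested, Il6ra, the IL-6 receptor chain, rose by 0.71 ± 0.15 and Ifngr2, an interferon gamma receptor chain, by 2.27 ± 0.53, and 0 fell. Il6ra stood at 77.4, 57.3 and 81.6 CPM in ND and 134, 119 and 105 CPM in MCDHFD. Ifngr2 was low, at 1.26 to 6.04 CPM in ND and 10.0 to 16.7 CPM in MCDHFD. It passed the filter on low counts through MCDHFD alone and could hardly fall. Neither overlapped. Both calls were absent with DESeq2. Il6ra was not called without ND replicate 1 or 3 or MCDHFD replicate 1 or 2, nor Ifngr2 without ND replicate 1 or 3 or MCDHFD replicate 1 or 3.

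A few genes induced by type I interferon fell on MCDHFD. Of 36 list members tested, 3 passed as lower, 0 as higher and 33 did not pass, and with DESeq2 Ifi27l2a alone passed. The list's median was -0.46, and 30 of its 36 values lay below 0, against 47.8% of all genes. The respiratory chain list had 32 of 34 values below 0 and the interferon gamma and antigen presentation list 28 of 31. Ifi27l2a, an interferon-induced gene of the mitochondrial ISG12 family, stood at 352, 407 and 417 CPM in ND and at 122, 139 and 124 CPM in MCDHFD. All 3 MCDHFD libraries lay in a narrow range far below ND. Its log2 change was -1.59 ± 0.14 (edgeR adjusted p = 2.72e-07). The call was lost with diet alone (edgeR adjusted p = 0.0602) and held with each library left out in turn. Leaving out either filtered library gives nearly the same comparison, so these are not all separate checks. Ifi27l2a UMIs came from 79, 29 and 50 ND members and from 82, 88 and 61 MCDHFD members.

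Bst2, which encodes tetherin, a protein that holds virus particles at the cell surface, stood at 87.7, 127 and 138 CPM in ND and 60.0, 56.0 and 75.8 CPM in MCDHFD (log2 -0.88 ± 0.18, edgeR adjusted p = 0.0116). Isg15, which encodes a ubiquitin-like protein, stood at 18.9, 66.4 and 62.8 CPM in ND and 2.94, 16.5 and 22.3 CPM in MCDHFD (log2 -1.81 ± 0.42, edgeR adjusted p = 0.0346). Bst2 did not overlap between the diets. Isg15 overlapped, since ND replicate 1 lay below MCDHFD replicate 3, and its call held in 9 of 21 alternatives. With DESeq2, and without ND replicate 3 or MCDHFD replicate 2, the Bst2 call was lost, and without any 1 library but ND replicate 1 that of Isg15 was lost. Outside the list, Ifi27, Ifi214 and AW112010 fell by 0.86, 0.99 and 0.66. These last genes were chosen after their values were seen.

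The promoters of Isg15 and Bst2 are shown as examples, chosen because both genes fell and both windows hold the core of an interferon-stimulated response element. The windows are the 250 bases before the transcription start, 5′ to 3′ on the gene's strand, from RefSeq on GRCm38.p6. Isg15 lies on the minus strand at chr4:156200819-156201068 and Bst2 on the minus strand at chr8:71537473-71537722. Capitals mark matches to GAAA, any 2 bases and GAAA again, searched on both strands.
Isg15: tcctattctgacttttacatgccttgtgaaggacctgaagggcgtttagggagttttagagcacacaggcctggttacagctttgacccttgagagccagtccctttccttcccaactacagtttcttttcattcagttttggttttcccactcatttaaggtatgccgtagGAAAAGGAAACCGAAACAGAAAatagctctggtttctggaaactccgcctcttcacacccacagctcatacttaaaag
Bst2: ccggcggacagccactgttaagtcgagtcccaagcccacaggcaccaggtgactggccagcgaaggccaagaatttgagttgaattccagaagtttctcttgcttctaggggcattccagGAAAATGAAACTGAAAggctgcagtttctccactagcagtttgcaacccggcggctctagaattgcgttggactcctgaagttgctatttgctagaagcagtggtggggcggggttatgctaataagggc
Isg15 holds 3 overlapping matches, the first beginning 78 bases before the start, and Bst2 holds 2 overlapping matches from 130 bases before it. Of 27025 genes with a window, 936 (3.46%) hold the motif, and of 29 tested interferon list members with a window 15 do. Of the 40 genes called lower that have a window, 4 hold it. A match describes the letters and does not show that a factor binds. Ifi27l2a was not matched in the table.

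The members' memory genes changed in few cases, each downward in the main test. Of 28 tested, 4 fell, 0 rose, and the median was -0.21. Plac8 stood at 218, 181 and 197 CPM in ND and 117, 128 and 105 CPM in MCDHFD (log2 -0.77 ± 0.14, edgeR adjusted p = 0.00389). Lgals1, which encodes the sugar-binding protein galectin-1, stood at 332, 483 and 452 CPM in ND and 218, 226 and 298 CPM in MCDHFD (log2 -0.78 ± 0.14, edgeR adjusted p = 0.00428). Neither overlapped. In ND replicate 3, 1 cell held 220 of the 360 Lgals1 UMIs, and without that library or MCDHFD replicate 2 the call was lost. With members that held at least 3 of 11 cycle genes or 10 UMIs of 6 neutrophil genes left out, Lgals1 changed by -0.23 (edgeR adjusted p = 0.655). The Plac8 call was lost without MCDHFD replicate 2. S100a10, an annexin partner, and Ms4a4c, a membrane protein gene, fell by 0.63 ± 0.13 and 0.77 ± 0.14. The first call was lost without ND replicate 1 or MCDHFD replicate 1 or 2, the second without ND replicate 3 or MCDHFD replicate 2. With the cycling and neutrophil-UMI members left out, S100a10 changed by -0.51 and was not called (edgeR adjusted p = 0.0881). Of the 28 memory genes tested in that setting, 1 rose and 3 fell. Of 31 genes of interferon gamma response and antigen presentation, H2-Q7, an MHC class I gene with close paralogs, fell by 0.56 ± 0.13 (edgeR adjusted p = 0.0324) and 0 rose. That call was lost without any 1 of ND replicates 1 and 3 and MCDHFD replicates 1 and 2.

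The markers of the class did not pass the test. Ly6c2 changed by -0.14 ± 0.13, Il2rb by 0.24 ± 0.15, Nkg7 by -0.43 ± 0.13 and Cxcr3 by -0.08 ± 0.16, with edgeR adjusted p from 0.135 to 0.886. Of 23 transcription factor genes of effector and memory fate, 21 homing genes, 7 inhibitory receptor genes and 14 early activation genes, 0 passed in edgeR and 0 in DESeq2. In edgeR 7, 3, 3 and 4 of them had an unadjusted p under 0.05, in the order given, and in DESeq2 3, 1, 2 and 2. In the fatty acid oxidation and glycolysis lists 0 of 20 and 0 of 15 passed in both tools. There, 4 and 2 genes had an unadjusted p under 0.05 in edgeR and 0 and 0 in DESeq2. Of 34 genes of the respiratory chain 2 fell, Uqcrb by 0.61 ± 0.14 and Atp5j2 by 0.55 ± 0.13. Both calls were absent with DESeq2 (0 of 34, 16 at an unadjusted p under 0.05) and without any 1 of ND replicates 1 and 3 and MCDHFD replicates 1 and 2. With the unfiltered lists alone 10 of them fell, and with cycling cells and cells with neutrophil UMIs left out 0 fell in edgeR, 13 having an unadjusted p under 0.05.

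Genes of cell division showed the largest falls, and these rest on very few cells. Of 23 cycle genes, 15 passed the filter on low counts and were tested, and of these 7 fell and 0 rose. Genes with almost no UMIs in MCDHFD passed that filter through ND alone and could hardly rise. The count of directions is therefore no support in itself. Mki67, the proliferation marker, stood at 87.7, 72.4 and 26.4 CPM in ND and 0.588, 4.80 and 4.46 CPM in MCDHFD (log2 -4.28 ± 0.46, edgeR adjusted p = 9.34e-06). A single cell held 57 of 102 Mki67 UMIs in ND replicate 1, 23 of 24 in ND replicate 2 and 21 of 21 in ND replicate 3. Pclaf, which encodes a partner of the replication clamp PCNA, fell by 5.49 ± 0.40 (edgeR adjusted p = 5.94e-08), with 61 of 88, 26 of 28 and 33 of 33 ND UMIs in 1 cell of each library. Stmn1, which encodes a tubulin-binding protein, fell by 3.43 ± 0.29, and the histone genes Hist1h1b, Hist1h2ae and Hist1h2ap by 4.90, 4.29 and 3.98.

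Counted as cells, cycling members did not separate the diets. With at least 3 of 11 cycle genes detected as the criterion, 2, 1 and 1 members cycled on ND and 0, 0 and 3 on MCDHFD. That is 1.83% ± 0.367 and 0.917% ± 1.59 of members (SD, n = 3 each, exact permutation p = 0.4). With these cells and those with at least 10 UMIs of 6 neutrophil genes left out, a setting added after the data were seen, 46 genes passed. Among the 89 genes, 70 were still tested and 35 were still called. Of the cycle list, 1 of 11 tested genes then passed, Hmgb2, a chromatin protein gene, which went from -1.76 ± 0.14 to -0.67.

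Cytotoxic genes fell in few cells. Of 17 tested, 4 fell and 0 rose. Gzmb, which encodes granzyme B, stood at 55.9, 42.3 and 27.6 CPM in ND and 3.53, 3.20 and 16.7 CPM in MCDHFD (log2 -2.84 ± 0.39, edgeR adjusted p = 3.23e-04). Its UMIs came from 10, 5 and 2 ND members and from 2, 4 and 7 MCDHFD members. Gzma, encoding granzyme A, fell by 2.11 ± 0.36 and came from 8, 7 and 9 ND members and 6, 10 and 6 MCDHFD members. Its levels overlapped between the diets. Gzmk, found at 72.4 CPM in ND replicate 2 and at 4.27 to 14.6 CPM elsewhere, fell by 1.77 ± 0.41. Xcl1, the ligand of the receptor on cross-presenting dendritic cells, fell by 1.54 ± 0.31 (edgeR adjusted p = 0.0132). An Xcl1 UMI was found in 12.6%, 11.9% and 10.4% of thinned ND members and in 4.73%, 4.40% and 0.971% of thinned MCDHFD members, without overlap (exact permutation p = 0.1). Slamf7, a receptor of the SLAM family, fell by 1.30 ± 0.24. Without the cycling and neutrophil-UMI cells Gzma and Gzmb were still called, at -1.97 and -2.08, while Xcl1, Gzmk and Slamf7 were not. Without MCDHFD replicate 2 all 5 of these calls were lost, and without ND replicate 1 all but that of Gzmb. With DESeq2 Gzma and Gzmk were not called. Gzmk was also lost without ND replicate 2 or MCDHFD replicate 3, and Slamf7 without MCDHFD replicate 1.

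**Figure D4:**
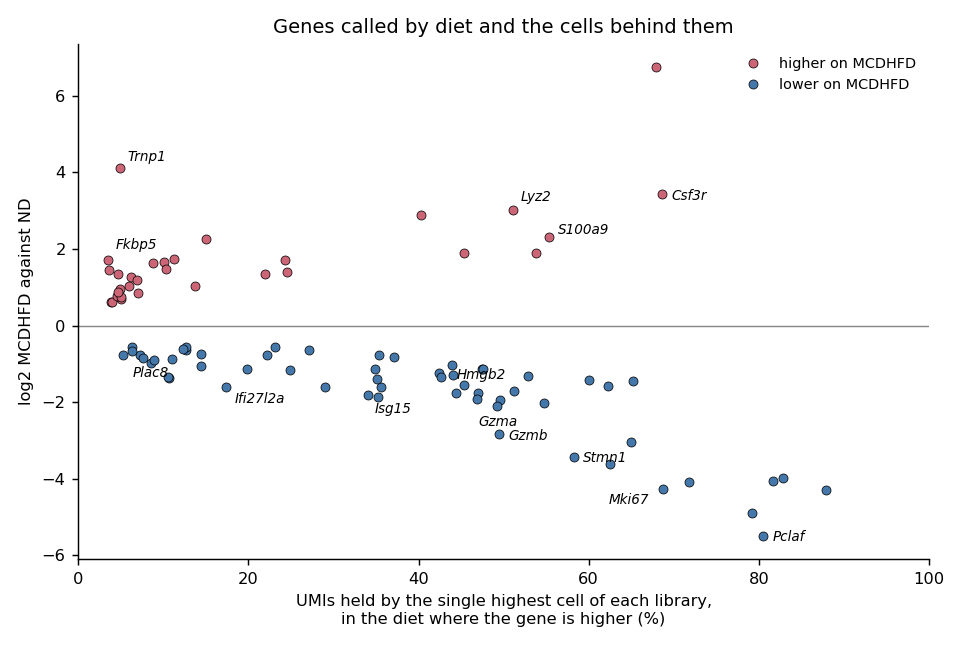
For each of the 89 genes called by diet, the log2 change (y axis) against the percent of its UMIs that came from the single highest cell of each library, summed over the diet where the gene is higher (x axis). Cycle genes such as Mki67 (68.7%) and Pclaf (80.5%) lie at the right, and Trnp1 (4.89%), Fkbp5 (3.49%), Plac8 (7.23%) and Ifi27l2a (17.4%) at the left.

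Of the 58 genes that fell, 16 had over 50% of their ND UMIs in the highest cell of each library, and 20 had under 25%. Of the 31 that rose, 5 had over 50% of their MCDHFD UMIs in such cells and 24 had under 25%.

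Neutrophil and myeloid genes rose in the members' sums. Of 12 neutrophil genes, 3 passed the filter on low counts and were tested, and all 3 rose. Csf3r, with 2, 0 and 1 UMIs in ND, passed that filter through MCDHFD alone and could hardly fall. S100a9, which encodes a calcium-binding alarmin, stood at 132, 18.1 and 38.9 CPM in ND and 199, 322 and 1085 CPM in MCDHFD (log2 2.31 ± 0.41, edgeR adjusted p = 0.00409). Members with at least 10 UMIs of 6 neutrophil genes numbered 2, 0 and 0 in ND and 2, 1 and 10 in MCDHFD. Without these and the cycling cells S100a9 was lower on MCDHFD, at -1.30. S100a9 is itself 1 of the 6 genes that defined the cut, and most cells removed were from MCDHFD. That value is therefore no test of a reversal. Lyz2, a lysozyme gene of myeloid cells, rose by 3.03 ± 0.53, with 55 of 149 and 164 of 251 UMIs in 1 cell of MCDHFD replicates 2 and 3. Without the cycling and neutrophil-UMI cells Lyz2 was still called, at 2.89 (edgeR adjusted p = 9.65e-04). Both calls were absent with DESeq2. The S100a9 call was lost without ND replicate 3 or MCDHFD replicate 2, and the Lyz2 call without any 1 of ND replicates 2 and 3 and MCDHFD replicates 2 and 3.

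The diet changes were then compared between members and Ccl5-negative cells. In the Ccl5-negative cells 130 of 9964 genes passed (1.3%), of which 61 were higher (0.612%) and 69 lower (0.692%). The test of the difference passed for 26 of 9663 (0.269%), of which 19 were higher in the members (0.197%) and 7 lower (0.0724%). Fkbp5, Ifi27l2a, Slc49a4, Eya2, Bst2 and S100a10 were called in both populations in the same direction. Their differences ranged from -0.23 to 0.58, with edgeR adjusted p from 0.517 to 0.990. Ly6c2 fell in Ccl5-negative cells by 0.76 and did not pass in members (-0.14), with a difference of 0.62 ± 0.11 (edgeR adjusted p = 0.00468). That difference was not called with DESeq2, nor without ND replicate 1, ND replicate 2 or MCDHFD replicate 3.

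**Figure D5:**
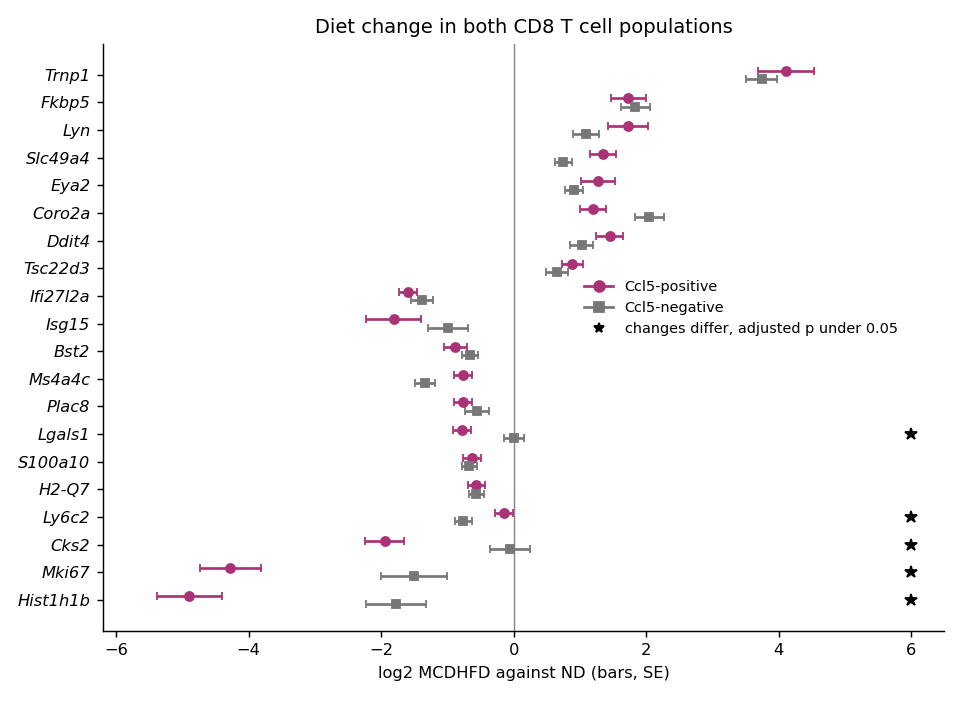
Log2 change between MCDHFD and ND with SE (x axis) for named genes in Ccl5-positive (purple) and Ccl5-negative (grey) CD8 T cells. Stars mark the genes whose changes differ between the populations, Lgals1, Ly6c2, Cks2, Mki67 and Hist1h1b, while Trnp1 changes by 4.11 and 3.74.

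Lgals1 was lower on MCDHFD in members and changed by 0.01 in Ccl5-negative cells, a difference of -0.80 ± 0.14 (edgeR adjusted p = 0.00193). Cks2, a cyclin-dependent kinase subunit gene, differed by -1.84 and Mki67 by -2.47. Of the 26 differences, 2 were called with DESeq2 and 2 with the cycling and neutrophil-UMI cells left out.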

How the data were processed

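The authors deposited raw UMI counts per gene and barcode for 6 libraries and 32285 genes, made with Cell Ranger 9.0.1 (4 unfiltered lists) or 7.2.0 (2 filtered lists) per the file headers. The submitters' processing notes name Cell Ranger 9.1.0, Seurat 4.3.0 and the build mm10, and the labels' protocols name a 3′ v3.1 kit. Whether the 2 filtered libraries came from that kit was not tested. Cells needed 1000 UMIs, 400 genes and no more than 10% of UMIs from mitochondrial genes, and doublets were not removed in the main counts. Members and gene lists were chosen with earlier results of these data known.

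Counts were summed per library over the members, and over Ccl5-negative CD8 T cells, and tested with edgeR 4.0.16 (quasi-likelihood, TMM, filterByExpr, list form and diet as terms, Benjamini-Hochberg adjustment, threshold 0.05) in R 4.3.3. The 11 genes of the rule were not tested. The difference between populations was tested over the 12 sums with library as a block. Shares were compared with two-sided exact permutation tests in scipy 1.17.1. Intervals and limits cover counting error only. The member test was also run on 7775 genes simulated from its own fitted model, with 200 of them changed by 1 on the log2 scale. It recovered 65.5% of the changed genes, with 8 false calls, 5.755% of its calls. Such sums do not reproduce single cells that hold most UMIs of a gene, so they do not measure error in the real sums.

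Named genes were the 12 largest called changes in each direction at a mean log2 CPM of at least 4 without overlap, the 8 largest differences between populations in each direction, up to 4 members of each list by smallest p, the 4 markers, Trnp1 and Syt6. Alternatives were diet alone, a replicate block, DESeq2 1.42.0, upper quartile scaling, no filter, other limits on cells and on Ccl5, doublets left out with Scrublet in scanpy 1.11.5, and each library left out. Those added after the data were seen left out cycling and neutrophil-UMI cells, used the unfiltered lists alone, or ran DESeq2 with diet alone. Some genes are not reported here.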

Additional observations from a re-analysis of the deposited data

Results flagged for a closer look

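For 16 named genes the test of the difference itself found unequal diet changes in Ccl5-positive and Ccl5-negative CD8 T cells. Values are the members' log2 change minus that of the Ccl5-negative cells. Of genes that neutrophils express, Lcn2 differed by 6.91, Ngp by 6.09, Ifitm6 by 5.61, Ltf by 5.58, Camp by 5.50, S100a9 by 5.02, Anxa1 by 4.91 and S100a8 by 4.88, and the myeloid lysozyme gene Lyz2 by 4.06. In the members, MCDHFD replicate 3 held 661 Ngp UMIs and 238 Lcn2 UMIs, while the other 5 libraries held at most 27 and 15. The summed neutrophil genes of the Ccl5-negative cells moved the other way, from 3925 to 15971 CPM in ND to 579 to 2902 CPM in MCDHFD. Their part in these differences was not tested.

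Of genes of cell division, Hist1h1b differed by -3.23, Pclaf by -3.12, Mki67 by -2.47 and Cks2 by -1.84. Lgals1 differed by -0.80, Ramp1 by 1.81 and Ly6c2 by 0.62. With cycling cells and cells with neutrophil UMIs left out, Ramp1 differed by 2.15 (edgeR adjusted p = 0.0300) and was still called. The Ramp1 difference was not called with diet alone, with DESeq2, without the Klra condition, without other-lineage UMIs, in the unfiltered lists, or without ND replicate 2, ND replicate 3 or MCDHFD replicate 3. Ly6c2 then differed by 0.45, Lgals1 by -0.49 and Cks2 by -0.82, and none of these 3 was called (edgeR adjusted p = 0.374 to 0.970). No single library was tested as standing apart within a diet, since each diet has 3.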

How the results depend on the processing

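The number of genes called by diet depended on the settings, against 89 in the members, 130 in Ccl5-negative cells and 26 for their difference. In the members it was 1 with diet alone, 4 with the replicate block, 30 with DESeq2, 14 with DESeq2 and diet alone, 350 with no filter, 149 and 25 with Ccl5 at least 1 or 5 UMIs, 14 without cells holding other-lineage UMIs, 46 without cycling and neutrophil-UMI cells, 159 in the unfiltered lists alone, and 18 to 156 with a library left out. In Ccl5-negative cells it was 1 with diet alone, 0 with the replicate block (164 at an unadjusted p under 0.05 in edgeR, and 127 called by DESeq2), 496 with no filter, 21 without other-lineage UMIs, 483 in the unfiltered lists, 25 with DESeq2 and diet alone, and 35 to 446 with a library left out. For the difference it was 9 with diet alone, 2 with DESeq2, 1 with DESeq2 and diet alone, 87 with no filter, 13 with Ccl5 at least 5 UMIs, 2 without the Klra condition, 7 without other-lineage UMIs, 2 without cycling and neutrophil-UMI cells, 16 in the unfiltered lists, and 7 to 74 with a library left out. Leaving out ND replicate 2 or MCDHFD replicate 3 leaves 1 filtered library, which the list form term fits exactly. The diet change then rests on the unfiltered lists. Those settings and the unfiltered lists alone are therefore nearly the same comparison, and they are not separate checks of a call. The Ngp difference, for one, was -0.98, -0.98 and -1.02 in them. All 89 member calls kept their sign with diet alone, with the replicate block and with DESeq2.

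Same-numbered libraries deviated from their diet's mean together with correlations of 0.316, -0.457 and -0.475. The 2 filtered libraries, ND replicate 2 and MCDHFD replicate 3, gave 0.571. List form therefore weighs on these values, and they cannot show whether replicate numbers pair the libraries. The block result is given only here. Some values changed sign. Without the Klra condition S100a9 and S100a8 changed by -0.57 and -1.18, and without cycling and neutrophil-UMI cells by -1.30 and -1.65. S100a8, S100a9 and Ngp are among the genes that defined the neutrophil-UMI cells, so their values in that setting follow partly from the cut. Without other-lineage UMIs Lgals1 changed by 0.47 and its difference was 0.22. That setting left 6, 26 and 25 members on ND and 52, 33 and 60 on MCDHFD, and only 44 of the 89 member calls could be tested in it. Without cycling and neutrophil-UMI cells the differences were -0.43 for Lyz2, -0.27 for S100a9, -0.20 for S100a8 and -1.10 for Ngp. In the unfiltered lists they were -1.02 for Ngp and -0.43 for Ltf, and with a library left out they ranged from -0.98 to 9.83 for Ngp and from -0.40 to 8.69 for Ltf. The Ccl5-positive share differed by 0.36 percentage points, by -1.92 without the Klra condition, and by -0.91 to 1.89 with a library left out. The Trnp1 share differed by 17.6 points thinned, by 35.1 unthinned, and by 11.7 to 22.3 with a library left out. The causes were not tested. Depth limits genes under a few CPM, most of all in ND replicate 2 with 45 members.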

Other observations

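Within the MCDHFD libraries the level of Trnp1 fell across the classes of Ccl5 UMIs given here, which leave out cells with 1. Its level in cells with 0, 2 to 9 and 10 or more Ccl5 UMIs was 53.7, 35.1 and 24.6 CPM in replicate 1, 82.1, 74.2 and 49.1 CPM in replicate 2 and 203, 148 and 118 CPM in replicate 3. The share of cells with a Trnp1 UMI was lowest in the highest Ccl5 class of each of these libraries, at 20.8%, 38.9% and 43.1%, although those cells were deepest. It did not fall steadily in replicate 2, where it was 45.1% at 0 and 51.0% at 2 to 9 Ccl5 UMIs. These classes were drawn from the measured counts, so the order is a description with no test.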
